A study of Homo sapiens with 6 samples.

Results

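The HOXB cluster is a run of 10 homeobox genes on chromosome 17, HOXB1 to HOXB9 and the more distant HOXB13. All 10 were found among the 57820 human genes of the deposited table by Ensembl identifier, with versions removed, and were read in cluster order. RNA was compared between DKO1 and its parent line HCT116, called WT, with 3 samples of each. HCT116 is an established human colorectal cancer line, and the series describes DKO1 as HCT116 in which DNMT1 and DNMT3B were knocked out. DKO1 and WT cells had the same culture medium, McCoy's 5A with foetal bovine serum, and no other treatment is given. DKO1 is 1 derived line, so loss of the enzymes and any other difference from the parent cannot be told apart. Whether the replicates were grown as separate cultures is not stated, and the p-values may therefore reflect technical spread alone.

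HOX genes encode homeodomain transcription factors that give cells along the body axis their positional identity. They lie in 4 clusters, HOXA to HOXD, and genes at matching positions are paralogues of shared ancestry. In the embryo, genes at the 3′ end of a cluster act early and toward the head and genes at the 5′ end act later and toward the tail. Retinoic acid, CDX factors, Polycomb proteins and trithorax proteins are known to control the clusters, and HOX proteins bind DNA together with PBX, MEIS and PKNOX cofactors. DNMT1 copies DNA methylation onto newly made strands and DNMT3B places it at unmethylated sites.

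Values are TPM, transcript abundances which correct for gene length and have the same total in each sample. Sequencing depth is unknown from such values. DNMT1 was lower in all 3 DKO1 samples (30.81 to 46.82 TPM) than in all 3 WT samples (231.01 to 249.97 TPM), and DNMT3B was at 3.56 to 4.86 TPM in DKO1 and 6.77 to 8.22 TPM in WT. The DNMT3B difference (limma adjusted p = 0.03) lost its call when DKO1 replicate 1 was left out (0.0535) or any 1 WT replicate was (0.11, 0.0908 and 0.0778 for replicates 1, 2 and 3). It also lost its call when mitochondrial genes and spike-ins were removed and the rest rescaled (0.0645). Mitochondrial transcripts held 21.2% to 27.7% of the TPM in DKO1 and 19.7% to 20.1% in WT. The epithelial marker EPCAM was at 371.29 to 500.38 TPM in DKO1 and 457.29 to 536.37 TPM in WT, while the differentiated intestinal markers VIL1, LGALS4 and CDH17 stayed below 1 TPM in all 6 samples. KRT20, another differentiated intestinal marker, was at 3.26 to 3.85 TPM in DKO1 and 1.94 to 2.77 TPM in WT. The 11 intestinal markers, of which 1 was called higher and 1 lower, summed to 700.0 to 930.0 TPM in DKO1 and 942.0 to 1180.0 TPM in WT. That sum was mostly EPCAM, KRT8 and KRT18, none of which was called. The marker called higher was CDH1, at 9.56 to 10.11 TPM in DKO1 and 2.63 to 3.54 TPM in WT. The marker called lower was CDX2. Summed markers of other cell types were higher in DKO1: 9 mesenchymal markers, of which 2 were called higher, summed to 749.0 to 922.0 TPM in DKO1 against 242.0 to 281.0 TPM in WT, 5 neural markers (3 called higher) to 29.9 to 30.9 against 5.72 to 6.94 TPM, and 7 blood markers (1 called higher) to 4.08 to 4.75 against 0.36 to 0.65 TPM. The mesenchymal sum was mostly VIM, at 725.05 to 897.67 TPM in DKO1 and 228.53 to 268.64 TPM in WT, while ZEB1 (4.88 to 9.18 TPM in DKO1 and 7.64 to 9.6 TPM in WT) and COL3A1 (0.07 to 0.17 and 0.26 to 0.33 TPM) had lower means in DKO1. The called markers CDH2, STMN2, INA and LYZ passed the filter only through DKO1 and so had to be higher. Beside these marker counts, 18.8% of all tested genes were called higher and 9.6% lower. The pan-leukocyte gene PTPRC was at 0.43 to 0.61 TPM in DKO1 and at 0 in WT, and the globin gene HBB was at 0 throughout. The part of these markers in the HOXB results was not tested. In a bulk sample, more RNA per cell and more cells that express a gene cannot be told apart.

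Start-site sequence is shown for 3 transcription units of the cluster. They are HOXB1, the member at 0 in every sample, HOXB-AS1, an antisense transcript that starts inside HOXB2, and LINC02086, a noncoding gene between HOXB9 and HOXB13 whose levels are described below. The windows are from RefSeq on GRCh38.p14, run from 250 bases before to 50 bases after the start, and have each CG dinucleotide, the site of DNA methylation, in capitals. LINC02086 has 2 windows in the table, and the one with more CG dinucleotides is shown. The HOXB1 window is chr17:48530962-48531261 on the minus strand, the HOXB-AS1 window chr17:48544101-48544400 on the plus strand and the LINC02086 window chr17:48646509-48646808 on the plus strand. By GENCODE release 29 on the same assembly, the HOXB-AS1 window lies wholly in the HOXB2 gene model but in none of its exons. It also lies wholly in the HOXB-AS1 gene model, so the RefSeq start of HOXB-AS1 is not the start of that model. The LINC02086 window lies in the gene model of LINC03057, on the opposite strand. Neither LINC02086 window overlaps the LINC02086 gene model of that release, so the RefSeq starts are not the start of that model.
HOXB1: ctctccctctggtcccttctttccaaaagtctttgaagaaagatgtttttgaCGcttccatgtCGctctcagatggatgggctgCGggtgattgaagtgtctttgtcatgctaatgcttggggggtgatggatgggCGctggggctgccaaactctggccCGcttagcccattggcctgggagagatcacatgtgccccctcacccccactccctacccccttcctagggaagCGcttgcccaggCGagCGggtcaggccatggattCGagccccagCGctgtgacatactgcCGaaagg
HOXB-AS1: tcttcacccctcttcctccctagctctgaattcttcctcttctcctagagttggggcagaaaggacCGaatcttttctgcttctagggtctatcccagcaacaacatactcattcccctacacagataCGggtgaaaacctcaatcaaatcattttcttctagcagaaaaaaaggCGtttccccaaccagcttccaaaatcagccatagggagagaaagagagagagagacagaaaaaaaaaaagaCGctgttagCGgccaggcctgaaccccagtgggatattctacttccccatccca
LINC02086: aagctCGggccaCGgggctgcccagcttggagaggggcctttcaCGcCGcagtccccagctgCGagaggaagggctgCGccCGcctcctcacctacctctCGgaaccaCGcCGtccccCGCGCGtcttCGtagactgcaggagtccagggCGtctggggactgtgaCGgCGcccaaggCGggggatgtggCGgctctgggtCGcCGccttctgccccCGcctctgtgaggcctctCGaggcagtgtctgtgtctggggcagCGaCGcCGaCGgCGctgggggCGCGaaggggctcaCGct
The HOXB1 window holds 11 CG dinucleotides, the HOXB-AS1 window 5 and the LINC02086 window shown 31. The other LINC02086 window, chr17:48642377-48642676 on the plus strand, holds 21, a number reached by 39.5% of all windows. The median over 35116 promoter windows of this length was 14, and 54.7%, 70.4% and 20.7% of the windows held at least as many as those of HOXB1, HOXB-AS1 and LINC02086. The motif TGATNNAT, searched on both strands for the joint PBX and HOX binding site known from the mouse Hoxb1 gene, had 1 match in the HOXB1 window and 0 in the other windows shown, and 7.4% of all windows held it. Only HOXB1 among the 10 members had a window in the table used. DNA methylation was not measured in these files.

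Every HOXB gene except HOXB1 was higher in DKO1, HOXB13 least firmly. Summed over the 10 genes, HOXB RNA was at 152.0, 167.0 and 111.0 TPM in DKO1 replicates 1, 2 and 3, against 31.4, 27.4 and 26.0 TPM in the WT replicates. HOXB made up 47.4% to 51.7% of the TPM of the 39 HOX genes listed for the 4 clusters in DKO1 and 15.4% to 17.8% in WT. In DKO1, 9 HOXB genes were at 1 TPM or above in every sample, against 5 in every WT sample. Over all human genes the number at that level was also higher in DKO1, at 13327 to 14419 per sample against 12110 to 12465 in WT. The plot of HOXB levels by sample shows that the groups were apart at each of these 9 genes.

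**Figure D1:**
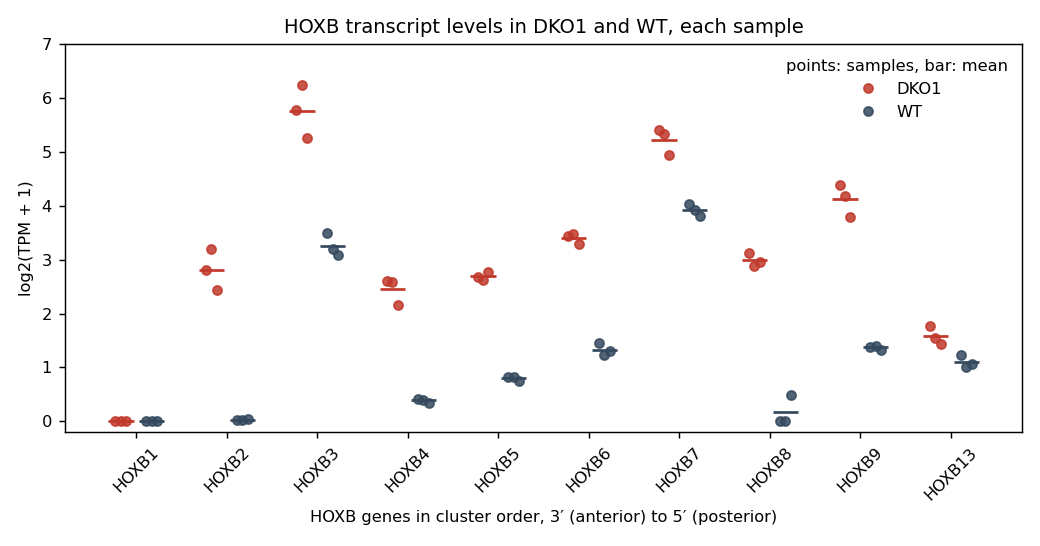
Levels of the 10 HOXB genes as log2(TPM + 1), in cluster order, with a point for each sample and a bar for the mean of the 3 DKO1 (red, left) or 3 WT (dark, right) samples. The DKO1 points lie above the WT points at 9 genes, the gap is smallest at HOXB13, and HOXB1 is at 0 in all samples.

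Each gene was tested with limma on log2(TPM + 1) among the 13604 genes that reached 1 TPM in at least 3 of the 6 samples, and called at an adjusted p (Benjamini-Hochberg) below 0.05. Each log2 fold change is the DKO1 mean minus the WT mean on that scale, which understates changes of low genes. HOXB1, at 0 throughout, did not pass the filter, and the other 9 did. All 9 were called higher and 0 lower, where 18.8% of all tested genes were called higher and 28.4% were called in either direction. A call with a log2 fold change of at least 2 was made for 6 of them, HOXB2, HOXB3, HOXB4, HOXB6, HOXB8 and HOXB9, and for 3.32% of all tested genes. The 3 DKO1 values were above the 3 WT values for each of the 9, as they were for 27.5% of all tested genes. HOXB2, HOXB4, HOXB5 and HOXB8 were below 1 TPM in WT and passed only through DKO1, so they had to differ and their calls add no support. The other 5, HOXB3, HOXB6, HOXB7, HOXB9 and HOXB13, were at 1 TPM or above in every WT sample. Of tested genes at that level in WT, 11.8% were called higher. The median log2 fold change of the 9 tested HOXB genes was 2.07, beside 0.073 over all tested genes. Without the filter, over all 10 HOXB genes, HOXB1 included, it was 2.06, beside 0.0 over all 57820 human genes.

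The 3′ genes HOXB1 to HOXB4 work mainly in the hindbrain, and HOXB4 also in blood stem cells. HOXB1 (ENSG00000120094.6), which specifies a segment of the hindbrain and the facial nerve, was listed at 0 TPM in all 3 DKO1 and all 3 WT samples. HOXB2 (ENSG00000173917.9), a downstream target of Hoxb1 in the mouse hindbrain, was at 5.98, 8.19 and 4.44 TPM in DKO1 and at 0.02, 0.02 and 0.03 TPM in WT. It was near silent in every WT sample, and its log2 fold change was 2.78 (SE 0.2, limma adjusted p = 7.22e-05). With values this close to the rounding of the table no ratio is given, and the fold change depended on the pseudocount, at 5.63 with 0.1 in place of 1.

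HOXB3 (ENSG00000120093.7), which patterns the hindbrain and pharyngeal region, had the highest level of the cluster in DKO1. It was at 53.92, 74.09 and 37.39 TPM in DKO1 and at 10.2, 8.19 and 7.51 TPM in WT, which is 6.39-fold higher by the means (log2 fold change 2.5, SE 0.25, limma adjusted p = 0.000314). In TPM, its DKO1 replicates also differed most among themselves, with an SD of 18.4 TPM around a mean of 55.1 TPM, and replicate 2 was the highest. This mean lay above that of 81.3% of tested genes in DKO1, against 46.2% for its mean of 8.63 TPM in WT. HOXB4 (ENSG00000182742.5), known for expanding blood stem cells, was at 5.1, 4.98 and 3.48 TPM in DKO1 and 0.34, 0.32 and 0.27 TPM in WT. Its groups were far apart (log2 fold change 2.06, SE 0.17, limma adjusted p = 0.000109). In GENCODE release 29, 17.1% of the exon bases of HOXB4 and 16.6% of those of HOXB6 also belong to another gene on the same strand, among them long transcripts of HOXB3, so the split of reads among these 3 genes is uncertain.

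The central genes HOXB5, HOXB6 and HOXB7 were all higher in DKO1. HOXB5 (ENSG00000120075.5), which takes part in the development of gut neurons and lung, was at 5.4, 5.19 and 5.79 TPM in DKO1 and 0.78, 0.77 and 0.68 TPM in WT, 7.35-fold higher (log2 fold change 1.89, SE 0.14, limma adjusted p = 6.4e-05). HOXB6 (ENSG00000108511.8) was at 9.78, 10.06 and 8.76 TPM in DKO1 and 1.73, 1.35 and 1.47 TPM in WT, 6.29-fold higher (log2 fold change 2.07, SE 0.15, limma adjusted p = 6.53e-05). Both had tight replicates, with DKO1 SDs of 0.304 and 0.684 TPM. Antisense HOXB-AS3 covers 16.3% of the HOXB6 exon bases. The libraries were made with a stranded kit, but whether counting used the strand is not given in the sources used here.

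HOXB7 (ENSG00000260027.3), often described as overexpressed in tumours, was the most abundant member in WT. It was at 41.52, 39.03 and 29.82 TPM in DKO1 and 15.39, 14.07 and 13.01 TPM in WT. The groups did not overlap, but the rise of 2.6-fold was the smallest ratio after that of HOXB13 (log2 fold change 1.31, SE 0.16, limma adjusted p = 0.000811). HOXB3 and HOXB7 together held 60.5% to 67.8% of the HOXB TPM in DKO1 and 79.0% to 81.4% in WT.

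The 5′ genes HOXB8 and HOXB9 act in the trunk. HOXB8 (ENSG00000120068.5), which blocks differentiation of myeloid cells when expressed at high levels in the mouse, was at 7.76, 6.35 and 6.77 TPM in DKO1. In WT it was listed at 0 in replicates 1 and 2 and at 0.41 TPM in replicate 3. Its log2 fold change was 2.82 (SE 0.19, limma adjusted p = 4.35e-05), or 5.35 with a pseudocount of 0.1. HOXB9 (ENSG00000170689.8), involved in the thoracic skeleton and the mammary gland, was at 19.84, 17.02 and 12.9 TPM in DKO1 and 1.61, 1.65 and 1.5 TPM in WT. This was the largest ratio among the HOXB genes with a WT mean of at least 0.5 TPM, at 10.5-fold (log2 fold change 2.75, SE 0.19, limma adjusted p = 4.86e-05).

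HOXB13 (ENSG00000159184.7), a lineage factor of prostate and distal colon epithelium, stood apart as the smallest and least firm change. It was at 2.41, 1.94 and 1.71 TPM in DKO1 and 1.35, 1.02 and 1.08 TPM in WT, 1.76-fold by the means. The 3 DKO1 values were above the 3 WT values, but the log2 fold change of 0.49 (SE 0.15) had a limma adjusted p of 0.0499. The call was lost in 10 of 14 alternatives. Leaving out a sample gave adjusted p of 0.121 and 0.0635 without DKO1 replicate 1 and 2 and 0.0868, 0.174 and 0.163 without WT replicate 1, 2 and 3. With quantile normalization the log2 difference was 0.05, at an adjusted p of 0.89. The other 8 genes kept their calls and direction in every alternative whose filter kept them, as the plot of fold changes by alternative shows.

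**Figure D2:**
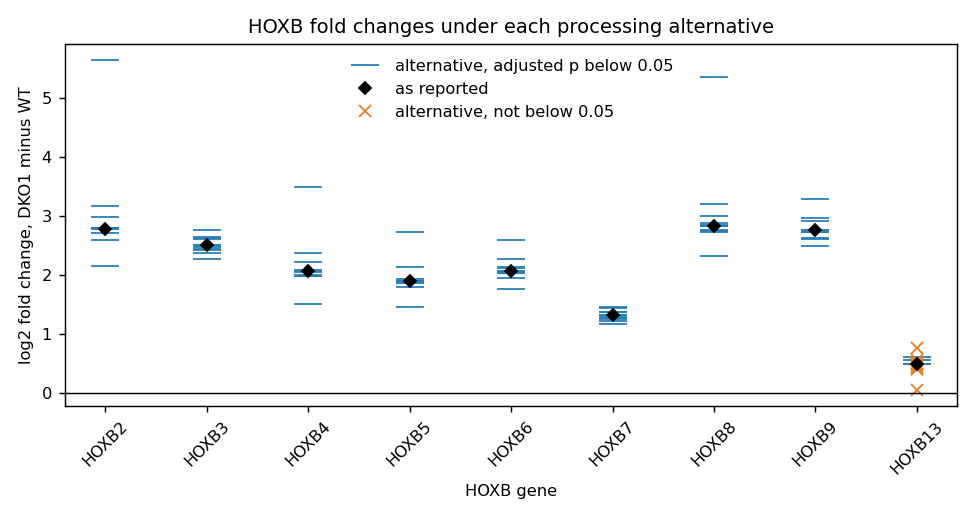
Log2 fold changes of the 9 tested HOXB genes, DKO1 minus WT, as reported (black diamond) and under each alternative, with blue dashes where the adjusted p was below 0.05 and orange crosses where it was not. Crosses occur at HOXB13 and at none of the other 8 genes, and the highest dashes of HOXB2 and HOXB8, at 5.63 and 5.35, are those with a pseudocount of 0.1.

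The order of levels within the cluster differed between the lines. In DKO1 the means ran from HOXB3 (55.1 TPM) through HOXB7 (36.8), HOXB9 (16.6), HOXB6 (9.53), HOXB8 (6.96), HOXB2 (6.2), HOXB5 (5.46) and HOXB4 (4.52) to HOXB13 (2.02 TPM). The sample ranges of HOXB3 and HOXB7 overlapped, as did those of HOXB8 and HOXB2 and of HOXB2 and HOXB5. In WT the order was HOXB7 (14.2 TPM), HOXB3 (8.63), HOXB9 (1.59), HOXB6 (1.52), HOXB13 (1.15), HOXB5 (0.743), HOXB4 (0.31), HOXB8 (0.137) and HOXB2 (0.0233 TPM). There, HOXB9 overlapped HOXB6, HOXB6 overlapped HOXB13, HOXB4 overlapped HOXB8 and HOXB8 overlapped HOXB2. HOXB7 was below HOXB3 in all 3 DKO1 samples and above it in all 3 WT samples. DKO1 replicate 3 held the lowest DKO1 value for 7 of the 9 expressed HOXB genes and replicate 1 the highest for 5. The mean log2(TPM + 1) over the 10 genes was 3.2, 3.2 and 2.91 in DKO1 and 1.29, 1.2 and 1.22 in WT. After HOX genes, the tested genes closest to this profile over the 6 samples, by root-mean-square difference on that scale, were NFIB, LINC02086 and FANCF, each at 0.15.

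Higher levels in DKO1 were also found at some genes next to the cluster. From SKAP1, the coding gene on the HOXB1 side, to TTLL6 on the HOXB13 side, 36 annotated genes were in the table and 22 were above 0 in some sample. Of these, 14 passed the filter, and 14 were called higher, including the 9 HOXB genes, beside 18.8% of all tested genes. The 5 others were SKAP1, ENSG00000264451, LINC03057, LINC02086 and PRAC1, of which the 3 noncoding genes were chosen after their values were seen. SKAP1, ENSG00000264451 and PRAC1 were below 1 TPM in WT and passed the filter only through DKO1. These 3 genes, like the 4 HOXB genes that passed the same way, had to be higher, so the count of 14 adds no support. SKAP1, an adaptor protein of T-cell signalling, was at 20.09, 23.06 and 17.63 TPM in DKO1 and 0.49, 0.25 and 0.27 TPM in WT (log2 fold change 3.99, SE 0.17, limma adjusted p = 8.55e-06). Its log2 fold change was the largest of the 14, as the plot of change along the region shows.

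**Figure D3:**
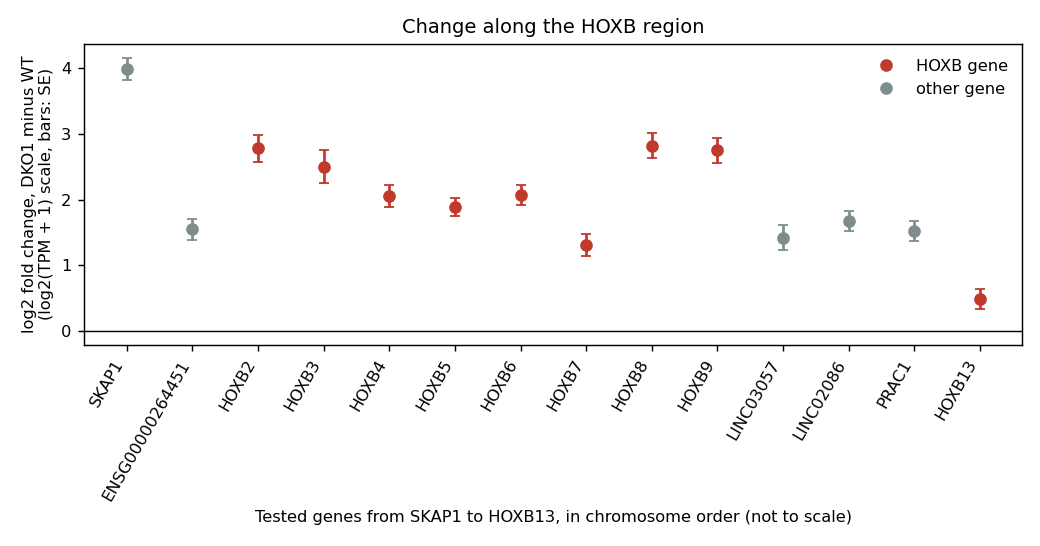
Log2 fold changes (DKO1 minus WT, bars are SE from limma) of the 14 tested genes from SKAP1 to HOXB13 in chromosome order, HOXB genes in red. All points lie above 0, with SKAP1 highest at 3.99 and HOXB13 lowest at 0.49.

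Noncoding genes near HOXB1 and between HOXB9 and HOXB13 were also higher in DKO1. ENSG00000264451, a long noncoding RNA gene between SKAP1 and HOXB1, was at 2.73, 2.86 and 1.88 TPM in DKO1 and 0.27, 0.09 and 0.19 TPM in WT (log2 fold change 1.55, SE 0.16, limma adjusted p = 0.000378). LINC02086 was at 7.19, 6.7 and 6.52 TPM in DKO1 and 1.41, 1.27 and 1.66 TPM in WT, and LINC03057 at 14.26, 11.35 and 10.39 TPM in DKO1 and 4.09, 4.4 and 3.08 TPM in WT. The groups were apart at both genes, with log2 fold changes of 1.68 (SE 0.15) and 1.42 (SE 0.19) and limma adjusted p of 0.000158 and 0.00117. Both start windows of LINC02086 lie in the LINC03057 gene model on the opposite strand. The levels of these 2 genes are therefore uncertain. Of the 9 noncoding HOXB genes on the list, 6 were matched in the table, 0 passed the filter and 4, HOXB-AS2, HOXB-AS4, MIR196A1 and MIR3185, were listed at 0 throughout. HOXB-AS1 was at 1.1, 0.85 and 1.14 TPM in DKO1 and 0, 0 and 0.14 TPM in WT, and HOXB-AS3 at 0.46, 0.7 and 0.78 TPM in DKO1 and 0, 0.2 and 0.26 TPM in WT. Without a filter both were called higher (limma adjusted p = 0.00197 and 0.0342). Libraries for messenger RNA do not capture mature microRNAs or their short precursors well.

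Farther neighbours were mixed. Of 18 listed coding neighbours, 15 were tested, 7 were called higher, 1 lower and 7 not called, beside 18.8% higher and 9.6% lower of all tested genes. The median log2 fold change of the 15 was 0.45. Of the 7 higher genes, SKAP1, PRAC1, COPZ2 and IGF2BP1 passed the filter only through DKO1 and had to be higher. Beyond SKAP1 and PRAC1, the higher genes were COPZ2, a coatomer subunit (3.1 ± 1.23 TPM in DKO1 and 0.03 ± 0.052 TPM in WT, SD, n = 3 each), IGF2BP1, a fetal RNA-binding protein (12.1 ± 0.691 and 0.553 ± 0.172 TPM), and NFE2L1, a regulator of proteasome genes (134.0 ± 24.6 and 71.6 ± 12.1 TPM). The calls of SNX11 and CALCOCO2 (log2 fold changes 0.57 and 0.48, limma adjusted p = 0.0423 and 0.0158) held in 1 and 4 of the 6 fits that left out a sample. CALCOCO2 lost its call without WT replicate 2 and 3 (0.0655 and 0.0864), and SNX11 held its call only without DKO1 replicate 2. The lower gene was CBX1, which encodes the HP1 beta chromatin protein (219.0 ± 14.1 TPM in DKO1 and 276.0 ± 11.9 TPM in WT, log2 fold change −0.34, limma adjusted p = 0.0433), a call that 1 of the 6 leave-out fits kept, that without DKO1 replicate 3. With the replicate number as a block, ATP5MC1, a subunit of ATP synthase, was also called lower (adjusted p = 0.0127).

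The paralogues in the HOXA cluster on chromosome 7 did not share the rise. Of 9 tested HOXA genes, 1 was called higher and 5 lower, where 9.6% of all tested genes were called lower, and their median log2 fold change was −0.6. The lower ones were HOXA3, HOXA9, HOXA10, HOXA11 and HOXA13, with log2 fold changes of −0.6, −0.53, −0.72, −0.85 and −1.51. Several of these falls were not firm: HOXA3 and HOXA9 kept the call in 1 of the 6 leave-out fits each (without DKO1 replicate 2), and HOXA10 lost it without WT replicate 2 (adjusted p = 0.0505). HOXA5 and HOXA7 were also called lower with the replicate block (adjusted p = 0.04 and 0.0233). Summed HOXA RNA was 89.9 ± 15.9 TPM in DKO1 and 128.0 ± 2.89 TPM in WT (SD, n = 3 each), and HOXA was below HOXB in every DKO1 sample and above it in every WT sample.

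Within each sample, the log2(TPM + 1) of a HOXB gene minus that of its HOXA paralogue gave 8 pairs to compare. This difference was higher in all 3 DKO1 samples than in all 3 WT samples for all 8 pairs. HOXB2, HOXB4 and HOXB5 passed the filter only through DKO1, so their pairs add no support. HOXA6 was at 0 to 0.12 TPM over the 6 samples, so its pair mostly restates HOXB6. HOXA2 stayed below 1 TPM, at 0.17 to 0.3 TPM in DKO1 and 0.56 to 0.89 TPM in WT. The share of other gene pairs that separate this way was not computed. The change in the difference, DKO1 minus WT, was 1.91 for HOXB4 and HOXA4 and for HOXB7 and HOXA7, the smallest, and 3.27 for HOXB9 and HOXA9, the largest. For the pair of HOXB13 and HOXA13 the difference averaged 0.44 ± 0.37 in DKO1 and −1.55 ± 0.1 in WT (SD, n = 3 each), a change of 2.0 to which HOXA13 contributed more (log2 fold change −1.51) than HOXB13 (0.49). HOXB2, HOXB5 and HOXB13 were each above their HOXA paralogue in 3 of 3 DKO1 samples and in 0 of 3 WT samples. HOXB9 remained below HOXA9 in all 6 samples, at 16.6 against 57.0 TPM in DKO1 and 1.59 against 81.4 TPM in WT. Each exact two-sided permutation test gave p = 0.1, the smallest that 3 against 3 samples allow (0.1 also after adjustment over the 8 pairs), so the design cannot reach 0.05 here.

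**Figure D4:**
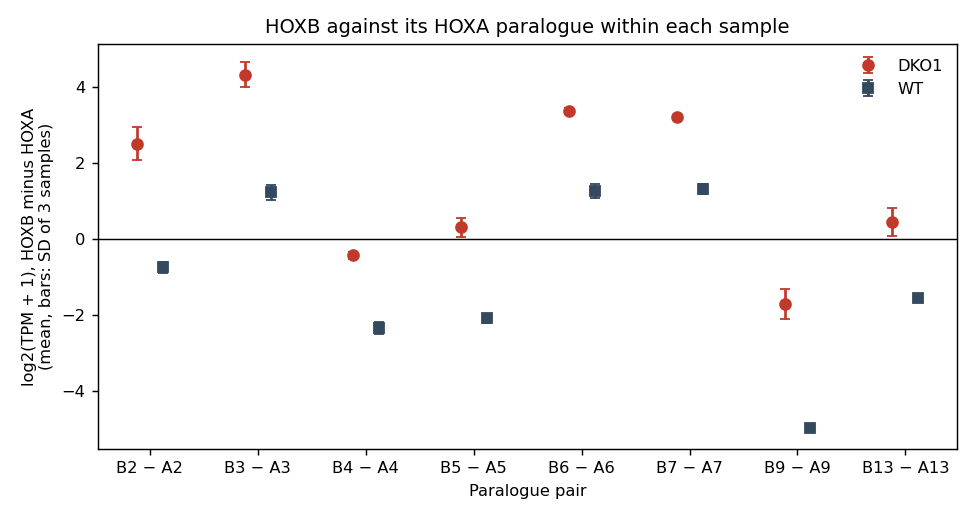
Difference in log2(TPM + 1) between each HOXB gene and its HOXA paralogue within a sample, as the mean and SD of 3 DKO1 (red circles, left) and 3 WT (dark squares, right) samples. All 8 DKO1 means lie above the WT means, and for B2, B5 and B13 they lie on opposite sides of 0.

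HOXC and HOXD had fewer expressed genes. Of 5 tested HOXC genes 3 were called higher and 0 lower, and of 3 tested HOXD genes 3 were called higher, beside 18.8% of all tested genes. HOXC10 (15.9 ± 3.85 TPM in DKO1, 2.06 ± 0.253 TPM in WT) and HOXD8 (10.3 ± 1.44 and 2.65 ± 0.486 TPM) had the highest DKO1 levels among those called, and HOXC4, HOXC13, HOXD10 and HOXD13, which passed the filter only through DKO1, were also called. HOXC4 and HOXD10 lost their calls with quantile normalization (adjusted p = 0.25 and 0.0772). HOXC9 passed the filter and was not called (log2 fold change 0.05, limma adjusted p = 0.853, 8.26 ± 0.567 TPM in DKO1 and 8.01 ± 1.37 TPM in WT, SD, n = 3 each). Whether the HOXB change differs from those of HOXC and HOXD was not tested.

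HOX cofactors moved in both directions. Of 9 listed genes 6 were tested, 1 was called higher and 2 lower, beside 18.8% higher and 9.6% lower of all tested genes. PBX3 was at 19.1 ± 2.5 TPM in DKO1 and 7.93 ± 0.433 TPM in WT (log2 fold change 1.17, SE 0.15, limma adjusted p = 0.00101). MEIS2 was at 5.48 ± 0.925 TPM in DKO1 and 11.3 ± 0.901 TPM in WT (log2 fold change −0.93, SE 0.17, adjusted p = 0.00546). The calls of PBX3 and MEIS2 were kept in 6 of 6 leave-out fits. With the replicate block, PKNOX1 was also called higher and PBX2 lower (adjusted p = 0.044 and 0.0466), and both were called without DKO1 replicate 3 (0.0272 and 0.0253).

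Among known regulators, the retinoid and CDX list had 12 of 19 genes tested, with 4 called higher and 2 lower, beside 18.8% and 9.6% of all tested genes. ALDH1A2 and DHRS3 passed the filter only through DKO1. ALDH1A2, which makes retinoic acid, was at 2.95, 1.73 and 2.95 TPM in DKO1 and 0.04, 0.32 and 0.01 TPM in WT (log2 fold change 1.65, SE 0.2, limma adjusted p = 0.000759). The retinoid-reducing enzyme gene DHRS3 and the retinoic acid hydroxylase gene CYP26A1 were also higher, at 2.99 ± 0.409 and 3.93 ± 0.383 TPM in DKO1 against 0.783 ± 0.518 and 1.78 ± 0.442 TPM in WT (SD, n = 3 each). With quantile normalization the CYP26A1 call was lost (adjusted p = 0.115). RXRA, a nuclear receptor partner, was called at an adjusted p of 0.0425 that 1 of the 6 leave-out fits kept (that without DKO1 replicate 3) and the replicate block did not (0.0549). The retinoic acid carrier CRABP2 was lower, at 24.7 ± 11.6 TPM in DKO1 and 80.8 ± 24.7 TPM in WT, and lost its call without WT replicate 1 or 3 (adjusted p = 0.0599 and 0.0539). CDX2, a master regulator of intestinal identity, was at 0.71, 0.52 and 0.7 TPM in DKO1 and 1.38, 1.22 and 1.32 TPM in WT (log2 fold change −0.49, SE 0.13, adjusted p = 0.026). It passed the filter only through WT, and lost its call without any 1 WT replicate (0.0953, 0.0789 and 0.102). CDX4 was listed at 0 throughout.

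Of 25 tested Polycomb and trithorax genes 2 were called higher, 2 lower and 21 not called, where 28.4% of all tested genes were called in either direction. The median log2 fold change was −0.06. The number called lower was 6 with median-ratio scaling, 5 with quantile normalization and 4 with the replicate block. SUZ12, a core subunit of the complex that methylates H3K27, was at 53.8 ± 15.9 TPM in DKO1 and 98.7 ± 6.87 TPM in WT (log2 fold change −0.9, SE 0.21, limma adjusted p = 0.0173), and its partner MTF2 at 39.6 ± 11.9 and 62.8 ± 2.99 TPM (−0.69, adjusted p = 0.0405). PHC1, of the complex that ubiquitinates H2A, was higher (log2 fold change 0.81, adjusted p = 0.013). The catalytic subunit EZH2 was at 91.4 ± 14.5 TPM in DKO1 and 94.6 ± 4.17 TPM in WT (adjusted p = 0.781). These calls rested on single samples in part. SUZ12 lost its call without WT replicate 1, 2 or 3 (0.0532, 0.0645 and 0.0603), MTF2 kept it only without DKO1 replicate 3, and PHC1 lost it without WT replicate 3 (0.0582). With the replicate block, EED and BMI1 were also called lower (0.035 and 0.0189) and PHF1 higher (0.0422).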

How the data were processed

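RNA was measured in 6 samples, 3 of DKO1 and 3 of WT. The authors deposited TPM per gene, with 2 decimals and the same total in each sample. The submitters' processing notes name hg19 and GRCh37, the programs RSEM 1.2.21, STAR 2.5.3a and edgeR 3.12.1, and FastQC with Trim Galore 0.4.0, without role or order, and the annotation release is not given in the sources used here. The 77 spike-in rows stayed out of the tests. Symbols were matched by Ensembl identifier; neighbourhood and gene models came from GENCODE 29 on GRCh38, and promoter windows from RefSeq, so no coordinate of the authors' build is given.

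Tests used limma 3.58.1 in R 4.3.3 on log2(TPM + 1), with genotype alone in the model and a trend in the variance, with the filter of at least 1 TPM in at least 3 samples, and the procedure was tested on simulated data. The HOXB members and the gene lists were chosen with earlier results of these data known. Genes named are all HOXB members and noncoding genes, called members of the other lists (some of which are counted but not reported here), and the 3 genes closest to the HOXB profile; others are said to be chosen after their values were seen, and list members that were not called are named for contrast or for a call under an alternative. Residuals of same-numbered DKO1 and WT samples correlated over genes (0.35, 0.572 and 0.267). The labels do not say that same-numbered samples were paired, and residuals taken within groups of 3 samples cannot settle it. A fit with the replicate number as a block was therefore an alternative. Other alternatives were the pseudocount, the filter, scaling, the variance trend and leaving out each sample.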

Additional observations from a re-analysis of the deposited data

How the results depend on the processing

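HOXB2 to HOXB9 kept their direction and their call under all alternatives whose filter kept them. The count of HOXB genes called higher was 8 to 9 across scalings, pseudocount, no filter, variance trend, replicate block and single-sample omissions. It was 4 with a mean of at least 5 TPM, a filter that 4 HOXB genes passed, and 4 with at least 1 TPM in every WT sample (chosen after seeing the data), which 5 passed. The HOXB13 call was lost with median-ratio scaling (adjusted p = 0.109), no filter (0.112), a pseudocount of 0.1 (0.0544) and quantile normalization (0.89), and held with the block (0.0454).

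Over all tested genes the median log2 difference was 0.073 as deposited, −0.055 with median-ratio scaling, −0.066 with quantile normalization and 0.173 after mitochondrial genes and spike-ins were removed and the rest rescaled; the median of the 9 HOXB genes was 2.07, 1.97, 1.75 and 2.36. Higher and lower calls over all genes were 2558 and 1306 as deposited, 2080 and 2094 with median-ratio scaling and 1817 and 1939 with quantile normalization. They were 1145 higher above a mean of 5 TPM, 4400 higher with no filter, and 1705 to 2842 higher and 524 to 2079 lower without single samples.

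Other lists moved more, and the cause was not tested. Without a filter, 2 noncoding HOXB genes, 3 cofactors and 12 other HOX genes were called higher and 1 Polycomb or trithorax gene lower. With a mean of at least 5 TPM there were 0 lower neighbours, 1 lower cofactor, 1 higher Polycomb or trithorax gene, 0 higher and 1 lower retinoid or CDX genes, and 2 higher and 2 lower other HOX genes. Median-ratio scaling gave 2 lower neighbours and 6 lower Polycomb or trithorax genes. Quantile normalization gave 0 lower neighbours, 1 higher and 5 lower Polycomb or trithorax genes and 4 higher other HOX genes. Rescaling gave 0 lower neighbours and 3 lower other HOX genes, and no variance trend 0 lower neighbours. The replicate block gave 2 lower neighbours, 2 higher cofactors and 4 lower Polycomb or trithorax genes, and changed no call of a HOXB gene. Without single samples, lower neighbours ranged from 0 to 1, higher cofactors from 1 to 2, higher and lower Polycomb or trithorax genes each from 0 to 4, lower retinoid or CDX genes from 0 to 2, and lower other HOX genes from 2 to 6. The paralogue differences kept their direction under every alternative run. HOXA2 and HOXA6 did not pass the filter, so their pairs had no quantile-normalized value. Depth is not recorded in TPM, so precision at values near 0 is unknown.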

Other observations

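Promoter windows of the coding neighbours of the cluster were compared by CG content, as values only. Windows were found for 14 of the 18 listed neighbours in the RefSeq table. Those of the genes called higher held 32 CG dinucleotides (COPZ2), 26 and 22 (NFE2L1), 20 and 34 (SNX11), 18 (CALCOCO2) and 9 (PRAC1). Those of genes not called held 23 (SP2), 9 and 23 (CDK5RAP3), 20 (ATP5MC1), 21 (UBE2Z) and 30 (SNF8), and that of CBX1, called lower, held 38. PRAC2, TTLL6 and GIP had windows but were not tested. The ranges of the called and not called genes overlapped.

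The gene nearest the HOXB profile over all 6 samples, NFIB, encodes a transcription factor of lung and brain development on chromosome 9. It was at 8.2, 7.81 and 7.48 TPM in DKO1 and 1.9, 1.6 and 1.39 TPM in WT (log2 fold change 1.75, SE 0.15, limma adjusted p = 0.000145). FANCF, a DNA repair gene on chromosome 11, was at 7.48, 8.49 and 5.31 TPM in DKO1 and 1.19, 1.28 and 1.05 TPM in WT (1.88, SE 0.19, limma adjusted p = 0.000323). These genes were found by their likeness to the HOXB values, so their agreement with it is a description.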
